A study of Mus musculus with 8 samples.

Results

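The inflammatory cytokines and haematopoietic secreted factors described here are 10 genes, Il6, Il1b, Il1a, Tnf, Osm, Lif, Csf1, Angptl2, Angpt1 and Il1rn, taken by symbol from the 24346 gene symbols measured in each of 8 RNA-seq libraries. The study asked which genes of haematopoietic stem and progenitor cells differ when the cells are cultured with red blood cells (RBCs). HSCs (Lin- Sca-1+ c-Kit+ CD48- CD150+) and LSK cells (Lin- Sca-1+ c-Kit+, a wider population that contains the HSCs and multipotent progenitors) were isolated from the bone marrow of wild-type C57BL/6 mice, and each was cultured for 1 day alone or with RBCs. This gave 4 groups of 2 libraries. All groups received thrombopoietin and stem cell factor in a serum-free medium. The RBCs were passed through a leukocyte filter and irradiated at 20 Gy before use, the cultures were haemolysed, and CD45-positive cells were sorted, so the libraries hold whatever CD45-positive cells were present after culture and not only cells that still had the starting phenotype. Mice in the study were 8 to 20 weeks old, and the age behind each library is not given. The labels do not say whether the 2 libraries of a group came from separate mice or cultures, so the p-values measure the spread between these libraries, which may be technical.

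Cytokines of this kind are secreted proteins that act on nearby cells through surface receptors. IL-1 and TNF signal to the nucleus mainly through NF-kB and MAP kinases, the IL-6 family signals through the shared receptor chain gp130 and STAT3, and many of their mRNAs are short-lived because AU-rich elements in the 3′ untranslated region (UTR) are bound by decay factors. In bone marrow, IL-1, TNF and IL-6 drive emergency production of myeloid cells. Angiopoietin-1 acts on the receptor Tie2 (Tek) and is linked to stem cell quiescence, and angiopoietin-like proteins support HSCs in culture.

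Values are FPKM (fragment numbers divided by transcript length and library size), which can be compared between genes. The summed FPKM of a library ranged from 680942 to 752107, and 14829 to 16551 genes had a value above 0. Differences were fitted with limma on log2(FPKM + 1) over the 12003 genes that reached 1 FPKM in 2 or more libraries. A gene was called when its Benjamini-Hochberg adjusted p was under 0.05 and its difference at least 2-fold on that scale, which understates the differences of genes with low values. Of the 10 genes, 8 passed this filter, and Il1a and Il1rn did not. The genes were chosen by name with their FPKM levels and RBC differences in these same libraries known from earlier work, so their own statistics are a description. With 2 libraries against 2, an exact permutation test of a single gene cannot give a two-sided p below 0.333. These are bulk samples, in which fewer cells of a type and less RNA per cell cannot be told apart.

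The sorted cells carried the RNAs of stem and progenitor cells. The 10 markers fixed for them (Kit, Ly6a, Cd34, Flt3, Cd48, Slamf1, Procr, Mecom, Hlf and Fgd5) summed to between 1053 and 1450 FPKM in the 8 libraries. Ly6a and Cd34 made up most of this sum. In HSCs with RBCs, 8 of the 10 had lower values and 2 higher (median log2 difference -0.26), and Cd48 was called lower (-1.08 ± 0.15, SE; limma, adjusted p = 0.0069). The 8 RBC markers in the files summed to between 282 and 338 FPKM in the 4 HSC libraries and between 111 and 184 in the 4 LSK libraries. Among them Hba-a1, a haemoglobin gene, had 0.0826 and 1.40 FPKM in HSCs, 116 and 88.7 with RBCs, 0.864 and 1.53 in LSK cells, and 32.9 and 43.1 with RBCs. Of the 6 RBC markers tested, 3 were called higher with RBCs in HSCs (Hba-a1, Hbb-b1 and Alas2) and 1 in LSK cells (Hba-a1). The shares of all tested genes called in either direction were 0.775% and 1.01%. Alas2 reached 1 FPKM only in libraries with RBCs, so its call is a description. The 1 marker lower in HSCs was Hbb-b2, with 279 and 335 FPKM without and 120 and 158 with RBCs (log2 difference -1.14, limma adjusted p = 0.157). In LSK cells 4 were higher and 2 lower with RBCs, the latter being Hbb-b2 at -0.71 and Hbb-b1 at -1.24, neither called. Among megakaryocyte or platelet markers, Gp1ba was called higher in HSCs and Pf4 lower in LSK cells with RBCs, and the list summed to between 84.4 and 237 FPKM. Mast cell or basophil markers summed to between 72.6 and 153 FPKM, with Fcer1a called lower with RBCs in HSCs. Gata2 made up most of this sum in every library except the first LSK library with RBCs. That library had the highest sum, with Prss34 at 52.4 FPKM against 0.646 in the second LSK library with RBCs. B cell markers summed to between 34.7 and 51.6 FPKM, with 0 of the 2 tested called with RBCs by limma (0 in HSCs and 1 in LSK cells at an unadjusted p under 0.05), and T or NK cell markers to at most 2.71. Neutrophil markers moved with the groups: the sum of 10 genes was 10.6 and 8.54 FPKM in HSCs, 254 and 46.4 in HSCs with RBCs, 129 and 221 in LSK cells, and 572 and 365 in LSK cells with RBCs. With RBCs most of this sum was S100a8 and S100a9. S100a8 had 148 and 22.3 FPKM in HSCs with RBCs and 303 and 204 in LSK cells with RBCs, and S100a9 had 87.9 and 11.8, and 156 and 89.6. Of these 10 genes, 2 were called higher with RBCs in HSCs (S100a8 and S100a9) and 3 in LSK cells (Retnlg, Mmp8 and Mmp9). Of all tested genes, 0.775% and 1.01% were called in either direction in these 2 comparisons. Mmp9 reached 1 FPKM only in the LSK libraries with RBCs, so its call is a description. The 10 monocyte or macrophage markers summed to between 91.4 and 118 FPKM in the 4 HSC libraries, to 72.5 and 84.4 in LSK cells and to 160 and 164 in LSK cells with RBCs. Cd68 made up most of the sum in every HSC library, with 85.9 and 107 FPKM without and 96.3 and 98.9 with RBCs. Ccr2 had 0.840 and 0.976 FPKM in HSCs and 1.87 and 2.09 with RBCs, and 7.61 and 4.57 in LSK cells and 34.4 and 35.0 with RBCs. Each of the 5 tested genes of this list had a positive log2 difference for RBCs, with a median of 0.64 in HSCs and 0.78 in LSK cells. Of these 5, limma called 1 in HSCs and 2 in LSK cells. Among the genes of the list that were not tested, C1qa was at 0 in every library and Adgre1 stayed under 0.6 FPKM. C1qb reached 1.13 FPKM in the second LSK library without RBCs. The 11 stromal or endothelial markers summed to between 19.8 and 25 FPKM without RBCs and between 26.8 and 31.7 with RBCs, while Col1a1, Pdgfra and Cdh5 stayed under 0.2 FPKM in every library. Emcn made up most of this sum in every library. Of the 4 tested among them, Col1a2 and Lepr were called higher with RBCs in HSCs, beside 0.775% of all tested genes called in either direction. In LSK cells 0 were called, with Lepr at a log2 difference of 0.998 (limma, adjusted p = 0.022) and Emcn at 0.63 (limma, adjusted p = 0.0089). Pdgfrb was lower with RBCs in both cell types, at -0.26 and -0.25, and was not called. The part of these other cell types in the results below was not tested.

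A single gene, Angpt1, made up most of the RNA of the 10 genes. It held 80.8% of their summed FPKM in HSCs, 78.4% in HSCs with RBCs, 78.7% in LSK cells and 81.4% in LSK cells with RBCs. Angptl2 came next in 3 of the groups, while in LSK cells with RBCs Osm and Il1b had higher means than Angptl2, and the libraries of Il1b overlapped those of Angptl2. The classical inflammatory cytokines were low: Il6, Il1a, Tnf, Lif and Csf1 never exceeded 2.13 FPKM, and Il1a and Il1rn never reached 1 FPKM. For such low genes the deposited values step in units of single reads, and the number of reads could be counted in relative terms; 3477 of 4301 low genes (80.8%) had values that were whole multiples of 1 step within 0.05. These read numbers are lower bounds, and intervals made from them cover counting error only.

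**Figure D1:**
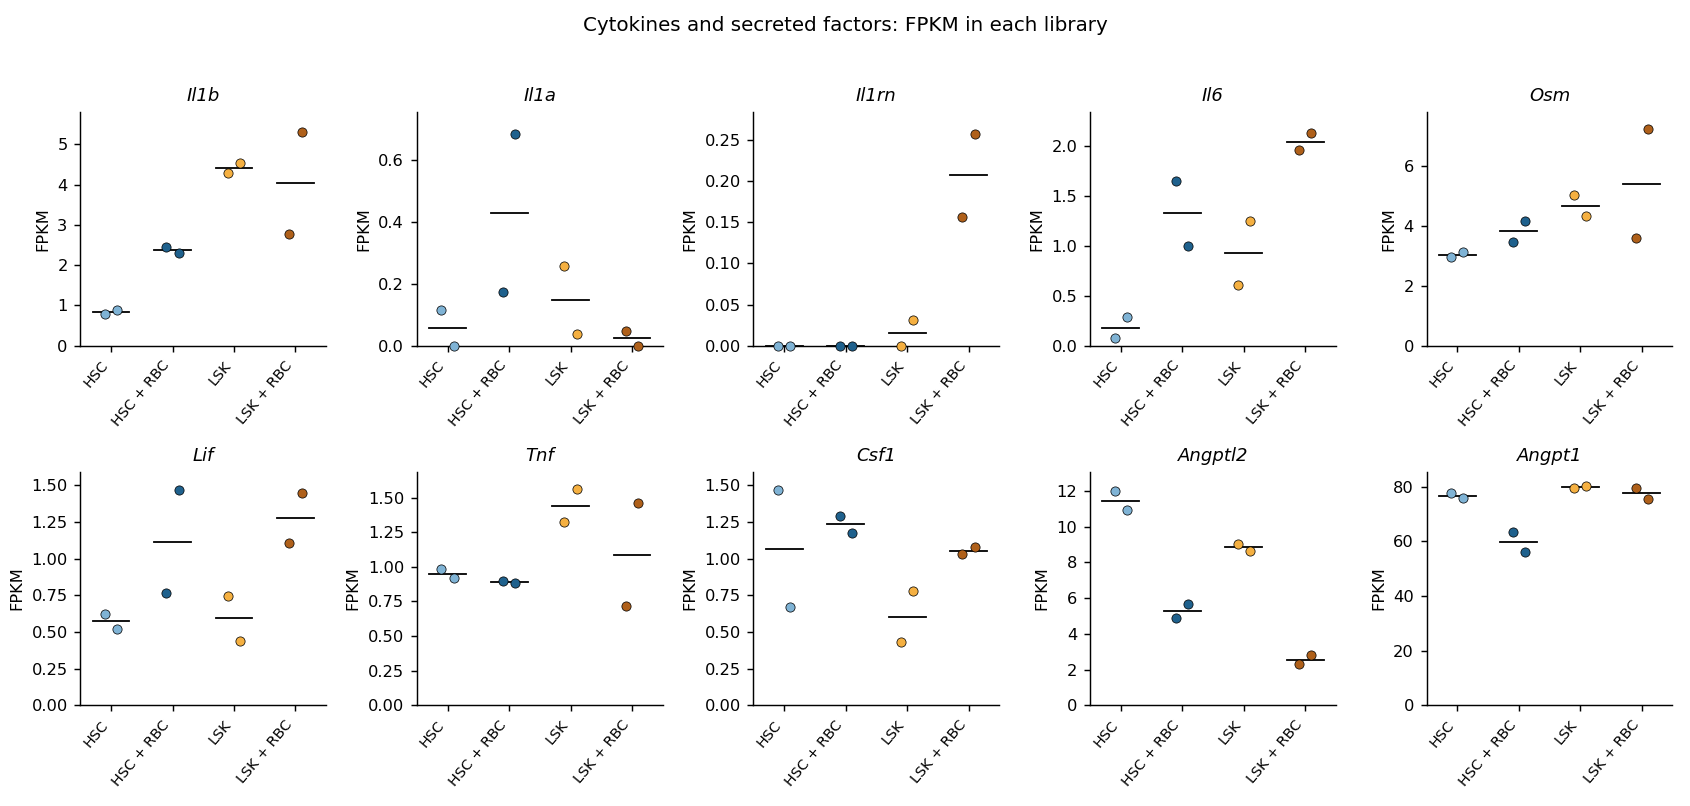
FPKM of each of the 10 genes in every library (points) with the mean of the 2 libraries of a group (line); each vertical axis starts at 0 and has its own scale. Angptl2 has 11.5 FPKM on average in HSCs and 2.54 in LSK cells with RBCs, and Il6 runs the other way, from 0.180 to 2.05 FPKM.

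Il6 encodes interleukin-6, which signals through Il6ra and gp130. The gene lies at chr5:30013114-30019981 (GRCm38, plus strand). Its promoter is shown because it is the one promoter among these genes that holds matches of NF-kB, AP-1 and C/EBP motifs together. The sequence is the 250 bases before the RefSeq start site (chr5:30012864-30013113, GRCm38.p6, plus strand), with motif matches in capitals.
Il6: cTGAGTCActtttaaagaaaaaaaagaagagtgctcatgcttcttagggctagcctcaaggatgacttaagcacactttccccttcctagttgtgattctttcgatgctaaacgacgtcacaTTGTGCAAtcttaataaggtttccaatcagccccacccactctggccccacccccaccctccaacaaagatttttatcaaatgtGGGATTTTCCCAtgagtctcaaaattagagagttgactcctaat
From the 5′ end, the capitals mark an AP-1 match (TGANTCA), a C/EBP match (TTNNGCAA) and a joined run of an NF-kB match (GGG, any 2 bases and TTTCC, 44 to 35 bases before the start) with an overlapping match of the RBPJ motif (TGGGAA, on the other strand). Both strands were searched. An NF-kB match was found in 1.63% of the 32851 mouse promoters of 300 bases in the table, an AP-1 match in 7.81%, a C/EBP match in 10.8% and an RBPJ match in 25.6%. A match describes letters and is not evidence of binding.

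Il6 had 0.0774 and 0.283 FPKM in HSCs and 1.65 and 1.0 in HSCs with RBCs. The groups did not overlap, and these values stand for 1 and 3 reads against 19 and 13. Adjusted for depth, the ratio of read numbers was 7.68, with a 95% counting interval from 2.72 to 29.9. In LSK cells Il6 had 0.609 and 1.25 FPKM without RBCs and 1.97 and 2.13 with RBCs. Here too the groups did not overlap, with 7 and 16 reads against 20 and 23 and a ratio of 2.16 (95% counting interval 1.28 to 3.76). On the log2(FPKM + 1) scale the difference was 0.97 ± 0.23 (SE) in HSCs and 0.68 ± 0.23 in LSK cells, and neither was called (limma, adjusted p = 0.069 and 0.158). With a pseudocount of 0.1 in place of 1, Il6 was called in HSCs, at a log2 difference of 2.41 (limma, adjusted p = 0.047). With single libraries left out, the log2 difference in HSCs ranged from 0.77 to 1.17. The value of 0.77 was without the first HSC library with RBCs, which had the higher neutrophil marker sum. Leaving out 1 library cannot separate neutrophil RNA from other spread between libraries.

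Osm and Lif encode oncostatin M and leukaemia inhibitory factor, which share gp130 with interleukin-6. They are neighbours on chromosome 11 (chr11:4236420-4241026 and chr11:4257557-4272514, GRCm38, both on the plus strand). Osm had 2.95 and 3.11 FPKM in HSCs, 3.46 and 4.16 in HSCs with RBCs, 5.03 and 4.31 in LSK cells and 3.60 and 7.21 in LSK cells with RBCs. The HSC groups did not overlap, but the last group spanned the whole range of LSK cells. The log2 difference with RBCs was 0.25 ± 0.25 in HSCs and 0.12 ± 0.25 in LSK cells (SE), where leaving out the second LSK library with RBCs turned it to -0.30. Lif had 0.622 and 0.520 FPKM in HSCs and 0.763 and 1.47 with RBCs, and 0.744 and 0.439 FPKM in LSK cells and 1.10 and 1.45 with RBCs. Both libraries with RBCs lay above both without them in each cell type. The log2 difference of Lif was 0.41 ± 0.22 in HSCs and 0.52 ± 0.22 in LSK cells, and neither was called (limma, adjusted p = 0.479 and 0.247).

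Il1b and Il1a encode the agonists interleukin-1 beta and interleukin-1 alpha, and Il1rn encodes the receptor antagonist that blocks them. All 3 lie on chromosome 2, Il1b at chr2:129364570-129371139 and Il1a at chr2:129299610-129309972 on the minus strand, and Il1rn at chr2:24336853-24351494 on the plus strand (GRCm38). The Il1b promoter is printed for comparison with that of Il6, since both Il1b and Il6 had higher values with RBCs in HSCs (chr2:129371140-129371389, GRCm38.p6, minus strand, 250 bases before the RefSeq start).
Il1b: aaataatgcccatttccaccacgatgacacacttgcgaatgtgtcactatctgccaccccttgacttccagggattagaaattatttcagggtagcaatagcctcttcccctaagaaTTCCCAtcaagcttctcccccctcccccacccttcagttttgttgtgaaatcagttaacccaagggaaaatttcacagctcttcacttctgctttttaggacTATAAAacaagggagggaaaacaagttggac
The capitals mark an RBPJ match on the other strand and a TATA match (TATAAA, found in 13.6% of promoters). None of the NF-kB, AP-1, CRE (TGACGTCA), C/EBP or STAT (TTCNNNGAA) letters searched occurred in this window.

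Il1b had 0.789 and 0.888 FPKM in HSCs and 2.46 and 2.29 in HSCs with RBCs. The groups stood well apart, at 13 and 12 reads against 36 and 38, a ratio of 2.84 (95% counting interval 1.79 to 4.67). LSK cells had 4.30 and 4.54 FPKM without RBCs and 2.77 and 5.31 with RBCs, so the libraries with RBCs lay on either side of those without, and the read ratio was 0.921 (95% counting interval 0.710 to 1.19). The log2 difference with RBCs was 0.88 ± 0.23 (SE) in HSCs, which was not called (limma, adjusted p = 0.096), and -0.15 ± 0.23 in LSK cells. With a pseudocount of 0.1 it was called in HSCs, at 1.40 (limma, adjusted p = 0.047). In LSK cells, leaving out the first library with RBCs turned the difference to 0.22. The difference between the effects in the 2 cell types was 1.03 ± 0.32 (SE), which did not pass the correction (limma, adjusted p = 0.244). Between the cell types without RBCs, Il1b was higher in LSK cells by 1.56 ± 0.23 on the log2 scale and was called (limma, adjusted p = 0.0024), with a read ratio of 5.31 (95% counting interval 3.45 to 8.49). With RBCs the difference between the cell types was 0.53 ± 0.23 and was not called (limma, adjusted p = 0.120). The antisense gene Il1bos shares 25 exonic bases with Il1b and had between 0.514 and 1.78 FPKM; the library kit does not mark strand, so reads from those bases cannot be assigned to either gene.

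Il1a had 0.115 and 0 FPKM in HSCs, 0.173 and 0.687 in HSCs with RBCs, 0.259 and 0.0388 in LSK cells, and 0.0487 and 0 in LSK cells with RBCs. Most of its reads came from 1 library, with 18 reads in the second HSC library with RBCs and at most 6 in any other. Adjusted for depth, the ratio with RBCs was 7.04 in HSCs, where the groups held 22 and 3 reads (95% counting interval 2.12 to 36.8), and 0.165 in LSK cells with 1 and 7 reads (0.00367 to 1.29). Il1a shares 222 exonic bases with Gm14023 on the other strand, a transcript listed at no more than 0.174 FPKM. Il1rn was listed at 0 in all 4 HSC libraries, at 0 and 0.0311 FPKM in LSK cells and at 0.156 and 0.258 in LSK cells with RBCs. These are 0 and 1 reads against 4 and 7, a ratio of 12.7 (95% counting interval 1.85 to 548). LSK cells with RBCs held 11 reads and HSCs with RBCs 0, and the 95% counting interval of this ratio starts at 2.93. In a fit over 18967 genes with no filter on low values, Il1rn differed by 0.25 ± 0.05 (SE) on the log2 scale between LSK cells with and without RBCs (limma, adjusted p = 0.091).

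Tnf encodes tumour necrosis factor (chr17:35199381-35202007, GRCm38, minus strand). It had 0.986 and 0.916 FPKM in HSCs, 0.898 and 0.886 in HSCs with RBCs, 1.32 and 1.57 in LSK cells, and 0.715 and 1.46 in LSK cells with RBCs. HSC values lay close together, and the pair of LSK libraries with RBCs was spread more widely than any other pair. The read ratio with RBCs was 0.934 in HSCs (95% counting interval 0.574 to 1.52) and 0.759 in LSK cells (0.490 to 1.16). The log2 difference was -0.04 ± 0.21 and -0.25 ± 0.21 (SE). Csf1 encodes macrophage colony-stimulating factor, the ligand of Csf1r (chr3:107741048-107760469, GRCm38, minus strand). Its values were 1.47 and 0.671 FPKM in HSCs, 1.29 and 1.18 in HSCs with RBCs, 0.432 and 0.776 in LSK cells, and 1.03 and 1.08 in LSK cells with RBCs. The HSC groups overlapped and the LSK groups did not. The log2 difference with RBCs was 0.14 ± 0.22 in HSCs and 0.37 ± 0.22 in LSK cells (SE), and neither was called (limma, adjusted p = 0.873 and 0.427).

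Angptl2 encodes angiopoietin-like 2, a secreted glycoprotein that binds the inhibitory receptor Pirb on HSCs. It lies at chr2:33216069-33247717 (GRCm38, plus strand), within Ralgps1 on the other strand, with which it shares 0 exonic bases. Its promoter is shown because Angptl2 was the one gene called with RBCs (chr2:33215711-33215960, GRCm38.p6, plus strand, 250 bases before the RefSeq start).
Angptl2: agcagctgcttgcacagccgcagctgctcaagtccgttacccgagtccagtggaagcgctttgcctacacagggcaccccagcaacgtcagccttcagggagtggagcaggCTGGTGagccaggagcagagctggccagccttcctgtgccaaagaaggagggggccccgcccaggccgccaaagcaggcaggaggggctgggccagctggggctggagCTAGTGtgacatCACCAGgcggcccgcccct
The capitals mark 3 matches of the N-box (CACNAG, a motif of Hes family repressors) on either strand. An N-box match occurs in 42.5% of promoters of this length, and none of the other 7 motifs searched was found here.

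Angptl2 had 12 and 10.9 FPKM in HSCs and 4.89 and 5.69 in HSCs with RBCs. In LSK cells it had 9.03 and 8.64 FPKM, and 2.28 and 2.80 with RBCs. Both libraries with RBCs lay below both without them in each cell type, and means with RBCs were 0.462 times those without in HSCs and 0.288 times in LSK cells. Angptl2 was called lower in LSK cells, at a log2 difference of -1.48 ± 0.14 (SE; limma, adjusted p = 8.07e-04). Leaving out single libraries, this difference ranged from -1.58 to -1.37. The value of -1.37 was without the first LSK library with RBCs, which had the highest neutrophil marker sum. In HSCs the log2 difference was -0.99 ± 0.14 (limma, adjusted p = 0.0071), just short of the 2-fold threshold, and a pseudocount of 0.5 took it past that threshold at -1.05 (limma, adjusted p = 0.0086). Over single libraries left out, the difference in HSCs ranged from -1.08 to -0.89, the latter without the first HSC library with RBCs. The difference between the effects in the 2 cell types was 0.49 ± 0.20 and did not pass the correction (limma, adjusted p = 0.357). Between cell types, Angptl2 was lower in LSK cells by a log2 difference of -0.34 ± 0.14 without RBCs (limma, adjusted p = 0.146) and -0.83 ± 0.14 with RBCs (limma, adjusted p = 0.0033), and neither was called.

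Angpt1 encodes angiopoietin-1 (chr15:42424723-42676977, GRCm38, minus strand). It had 77.5 and 75.7 FPKM in HSCs, 63.4 and 56.2 in HSCs with RBCs, 79.6 and 80.2 in LSK cells, and 79.6 and 75.5 in LSK cells with RBCs. Only HSCs with RBCs stood apart, below every other library. The log2 difference with RBCs was -0.35 ± 0.08 (SE) in HSCs (limma, adjusted p = 0.047) and -0.04 ± 0.08 in LSK cells (limma, adjusted p = 0.816), and the first was far short of 2-fold. The difference between these effects was -0.31 ± 0.11 and did not pass the correction (limma, adjusted p = 0.299). With RBCs, LSK cells had more Angpt1 RNA than HSCs by 0.37 ± 0.08 on the log2 scale (limma, adjusted p = 0.0079), again under 2-fold. The annotation places 737 exonic bases of Angpt1 opposite the antisense gene Gm17473, for which no value was used here.

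With RBCs, limma called 0 of 8 in HSCs (4 at an unadjusted p under 0.05, as were 13.7% of all tested genes), where 0.775% of all tested genes were called in either direction, and 1 of 8 in LSK cells, where 1.01% were called in either direction and 0.108% lower. For the difference between these effects limma called 0 of 8 (3 at an unadjusted p under 0.05, beside 12.5% of all tested genes), against 0.108% of all genes. In LSK cells against HSCs, 1 of 8 was called without RBCs, where 2.66% of genes were called in either direction and 1.62% higher. With RBCs it was 0 of 8 (3 at an unadjusted p under 0.05, beside 37.6% of all tested genes), where 3.61% were called. Since the genes were picked with these contrasts known, nothing is read from these counts. The 8 genes had a median log2 difference with RBCs of 0.19 in HSCs and of 0.04 in LSK cells, beside -0.01 over all tested genes in both. In HSCs, libraries with and without RBCs did not overlap for 7 of the 8 tested genes, 4 of which were higher with RBCs and 3 lower, while 19.9% of all tested genes were higher and 21.8% lower in this sense. In LSK cells 3 were higher and 1 was lower, beside 24.2% and 26.4% of all tested genes. Between LSK cells and HSCs, 5 were higher in LSK cells and 1 lower without RBCs (28% and 26.9% of all tested genes), and 3 were higher and 2 lower with RBCs (33.7% and 33.1%).

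**Figure D2:**
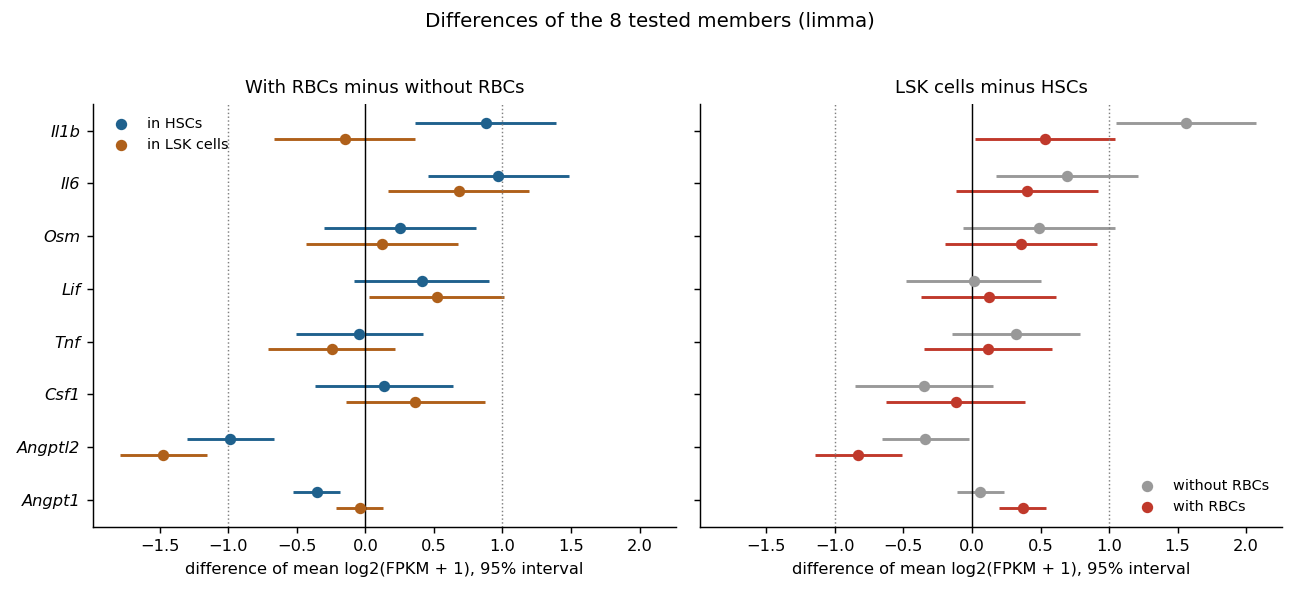
Differences in mean log2(FPKM + 1) of the 8 tested genes from limma, with 95% intervals (bars), for RBCs against no RBCs (left) and LSK cells against HSCs (right); dotted lines mark 2-fold. Angptl2 lies below 0 in both cell types with RBCs, at -0.99 and -1.48, and Il1b, which was not called in either cell type, lies at 0.88 in HSCs and -0.15 in LSK cells.

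By a fixed measure of likeness, Pearson's r of log2(FPKM + 1) over the 8 libraries, the tested genes most like Angptl2 were 1110051M20Rik (r = 0.979), Ccnd2 (r = 0.978), which encodes cyclin D2, and Ptpmt1 (r = 0.976). Those most like Il1b were Rsg1 (r = 0.978), the long noncoding RNA Tug1 (r = 0.968) and Nkiras2 (r = 0.964), which encodes an inhibitor of NF-kB signalling. These are the highest values among all tested genes over 8 libraries that share their groups, and they are a description.

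The 3′ UTRs of the cytokines are rich in the AU-rich pentamer ATTTA, a core of the element through which decay factors act on mRNA. In the longest annotated 3′ UTR (GENCODE M21), Tnf had 8 pentamers in 764 bases, Il1b had 4 in 459, Il6 had 10 in 1668 and Osm had 6 in 1017. These are 10.5, 8.71, 6.0 and 5.90 pentamers per kb, each above the value of at least 95.9% of the 10948 tested genes with a 3′ UTR. Angpt1 (3.12 per kb), Il1a (2.72), Lif (2.2) and Csf1 (1.89) were also above the median of 1.31 per kb. Angptl2 and Il1rn had 0, whereas 69.3% of the tested genes had at least 1. The nonamer TTATTTATT was found 5 times in Tnf and 2 times in Lif, in none of the other 8 genes and in 7.98% of tested genes. Stretches of 29 bases are shown for the densest 3′ UTRs, with the pentamers in capitals.
Tnf: ttATTTAttATTTATTTAttATTTATTTA
Il1b: aaccacttacctATTTATTTAtgtATTTA
Il6: ttaattatttttaATTTAttgataATTTA
Osm: atccgttttatATTTAtaaggcctATTTA
The Tnf stretch holds 5 pentamers, that of Il1b 3, and those of Il6 and Osm 2 each. Tnf and Il1b, the densest pair, had 0.934 and 2.84 times the reads without RBCs in HSCs with RBCs. Whether the decay of these mRNAs differs with RBCs was not tested.

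**Figure D3:**
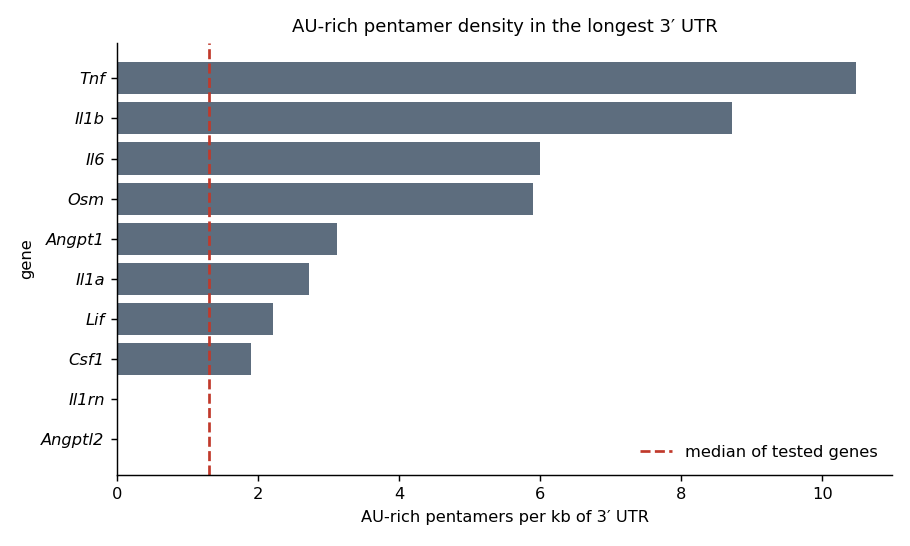
AU-rich pentamers per kb in the longest annotated 3′ UTR of each of the 10 genes (bars); the dashed line is the median of the tested genes, 1.31 per kb. Tnf and Il1b have the highest densities, 10.5 and 8.71 per kb, and Angptl2 and Il1rn have 0.

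Among 9 genes of AU-rich mRNA decay and binding, all tested, Zfp36 was the one called. The call was with RBCs in LSK cells, where 1.01% of all tested genes were called in either direction. Zfp36 encodes tristetraprolin, which binds AU-rich elements and speeds the decay of Tnf and other cytokine mRNAs. It had 37.2 and 32.5 FPKM in HSCs, 60.6 and 56.6 in HSCs with RBCs, 36.8 and 26.1 in LSK cells, and 74.2 and 90.2 in LSK cells with RBCs. All 4 libraries with RBCs lay above all 4 without. Zfp36 rose by 1.37 ± 0.15 (SE) on the log2 scale in LSK cells (limma, adjusted p = 0.0021), and its log2 difference of 0.74 ± 0.15 in HSCs was under 2-fold (limma, adjusted p = 0.041). The difference between these effects did not pass the correction (limma, adjusted p = 0.294).

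Of 13 receptors of the 10 ligands, 11 were tested. With RBCs, 1 was called higher in HSCs and 1 in LSK cells, in both cases Csf1r, the receptor of the Csf1 product. Of all tested genes, 0.775% and 1.01% were called in either direction. Csf1r had 2.53 and 2.81 FPKM in HSCs and 7.07 and 9.37 with RBCs, and 14.1 and 22.8 FPKM in LSK cells and 47.2 and 54.3 with RBCs. The 4 groups did not overlap. Csf1r rose by 1.32 ± 0.21 on the log2 scale in HSCs (limma, adjusted p = 0.012) and by 1.44 ± 0.21 in LSK cells (limma, adjusted p = 0.0075). Csf1r is also one of the 10 monocyte or macrophage markers; with it, Ccr2 was called higher in LSK cells with RBCs, and the others of the 5 tested were not called in either cell type. Between cell types, Csf1r was higher in LSK cells by 2.37 ± 0.21 without RBCs (limma, adjusted p = 1.43e-04) and 2.50 ± 0.21 with RBCs (limma, adjusted p = 8.97e-05). In the comparison with RBCs, 3 more receptors were called higher in LSK cells, where 3.61% of all tested genes were called in either direction. Il6ra, the receptor that binds interleukin-6, had 1.29 and 2.49 FPKM in HSCs with RBCs and 5.62 and 5.74 in LSK cells with RBCs, a log2 difference of 1.24 ± 0.23 (limma, adjusted p = 0.0052). The interleukin-1 decoy receptor Il1r2 differed by 1.27 ± 0.22 (limma, adjusted p = 0.0034), with 2.29 and 1.43 FPKM in HSCs with RBCs and 6.53 and 5.15 in LSK cells with RBCs. Pirb had 0.937 and 1.15 FPKM in HSCs with RBCs and 3.28 and 3.06 in LSK cells with RBCs, a log2 difference of 1.03 ± 0.16 (limma, adjusted p = 0.0025). The highest Pirb values stood in the group with the lowest Angptl2 values, but this order did not hold in HSCs. There Angptl2 was lower with RBCs, while Pirb had 1.02 and 0.983 FPKM without them (log2 difference with RBCs 0.03 ± 0.16; limma, adjusted p = 0.970). In LSK cells Pirb was higher with RBCs by 0.85 ± 0.16 (limma, adjusted p = 0.025), under 2-fold. A link between the 2 genes was not tested.

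Among 13 genes of cytokine processing and release, 10 were tested and 0 were called with RBCs in either cell type by limma (5 in HSCs and 3 in LSK cells at an unadjusted p under 0.05, as were 13.7% and 18.6% of all tested genes), with 1 in HSCs and 2 in LSK cells at an adjusted p under 0.05 whatever the fold, as for 2.53% and 3.45% of all tested genes. Adam17, the sheddase that releases TNF and the ectodomains of many receptors, was called between the cell types. It had 18.8 and 15 FPKM in HSCs, 20.8 and 25 in HSCs with RBCs, 37.1 and 43.2 in LSK cells, and 66.6 and 70.7 in LSK cells with RBCs. LSK cells had more by 1.21 ± 0.13 (SE) on the log2 scale without RBCs (limma, adjusted p = 4.87e-04) and by 1.55 ± 0.13 with RBCs (limma, adjusted p = 9.12e-05). The 16 transducers of IL-1 and TNF receptor signals were all tested, and 0 were called in any of the 5 comparisons by limma. At an unadjusted p under 0.05 there were 0 for RBCs in HSCs, 1 for RBCs in LSK cells and 0 for the difference between these effects, beside 13.7%, 18.6% and 12.5% of all tested genes. There were 4 between the cell types both without and with RBCs, where 28.7% and 37.6% of all tested genes passed. Of 21 NF-kB factors and feedback targets, 17 were tested and 0 were called with RBCs by limma (2 in HSCs and 7 in LSK cells at an unadjusted p under 0.05, beside 13.7% and 18.6% of all tested genes), with 1 in HSCs and 2 in LSK cells at an adjusted p under 0.05. The median log2 difference over the 17 was 0.04 in HSCs and 0.28 in LSK cells. Without RBCs, 2 of them were called lower in LSK cells than in HSCs, where 2.66% of all tested genes were called in either direction. These were Bcl3 at -1.01 ± 0.13 (limma, adjusted p = 0.0012) and Traf1 at -1.24 ± 0.16 (limma, adjusted p = 0.0013), both targets and modulators of NF-kB.

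Of 18 colony-stimulating and growth factors, 7 were tested and 2 were called higher with RBCs in LSK cells, where 1.01% of all tested genes were called in either direction. In HSCs limma called 0, and 0 passed an unadjusted p under 0.05, beside 13.7% of all tested genes. Tgfb2 had 0 and 0.0454 FPKM in LSK cells and 1.10 and 1.45 with RBCs (log2 difference 1.15 ± 0.19; limma, adjusted p = 0.013), and Tgfb3 had 0.671 and 0.603 FPKM in LSK cells and 2.19 and 4.74 with RBCs (1.39 ± 0.26; limma, adjusted p = 0.023). Tgfb2 and Tgfb3 reached 1 FPKM only in the 2 LSK libraries with RBCs. They thus entered the test only through the group where they are high, and their calls are a description. With RBCs, Tgfb3 was also called higher in LSK cells than in HSCs, where it had 0.695 and 0.868 FPKM (1.27 ± 0.26; limma, adjusted p = 0.0079). Both encode transforming growth factor beta ligands, a family known for holding HSCs in quiescence. In HSCs, Tgfb2 had 0.0599 and 0.0183 FPKM and 0.253 and 0.357 with RBCs. Il4 was lower in LSK cells than in HSCs without RBCs, with 6.46 and 7.36 FPKM against 18.2 and 24.9 (-1.50 ± 0.21; limma, adjusted p = 0.0020). Of 16 other TNF superfamily ligands, 8 were tested and limma called 0 with RBCs (2 in HSCs and 1 in LSK cells at an unadjusted p under 0.05, beside 13.7% and 18.6% of all tested genes). Ltb, which encodes lymphotoxin beta and was picked out after its values were seen, had 56.4 and 45.8 FPKM in HSCs and 23.2 and 27.2 with RBCs, just short of 2-fold (-0.99 ± 0.12; limma, adjusted p = 0.0035). Tnfsf11, which encodes RANKL, was lower in LSK cells than in HSCs without RBCs, at 0.902 and 0.979 FPKM against 3.51 and 4.52 (-1.36 ± 0.20; limma, adjusted p = 0.0023). The 8 other IL-6 family ligands (5 tested), the 7 other IL-1 family ligands (1 tested) and the 7 other angiopoietin family genes (3 tested) gave 0 calls in any of the 5 comparisons by limma. Between 0.108% and 3.61% of all tested genes were called in these comparisons, so 0 calls among so few genes say little about the lists. At an unadjusted p under 0.05 there were 1, 0 and 0 of them for RBCs in HSCs and 1, 0 and 1 in LSK cells, beside 13.7% and 18.6% of all tested genes. For the other 3 comparisons there were between 0 and 2 in each list, beside 12.5%, 28.7% and 37.6% of all tested genes. In the 3 lists, the one gene at an adjusted p under 0.05 for RBCs was Ebi3 in HSCs, where 2.53% of all tested genes passed. Ebi3 was named after its values were seen, with 64.3 and 68.0 FPKM without and 44.5 and 44.3 with RBCs (-0.56 ± 0.09; limma, adjusted p = 0.010). The median log2 difference with RBCs in these 3 lists was -0.16, 0.26 and -0.08 in HSCs and -0.02, 0.39 and -0.08 in LSK cells.

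**Figure D4:**
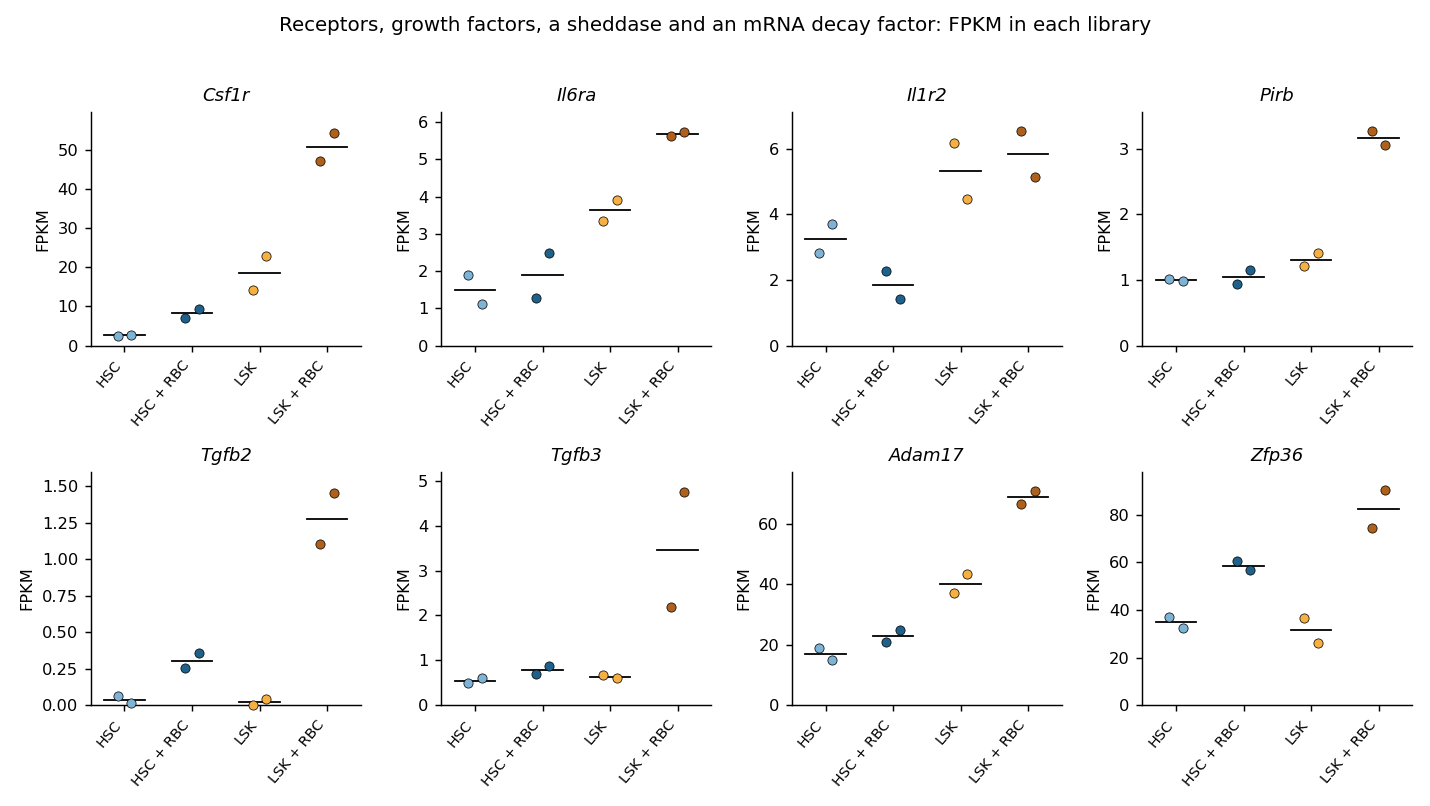
FPKM of receptor genes, of Tgfb2 and Tgfb3, of the sheddase gene Adam17 and of the mRNA decay factor gene Zfp36 in every library (points) with group means (lines); each vertical axis starts at 0 and has its own scale. Csf1r runs from 2.67 FPKM on average in HSCs to 50.7 in LSK cells with RBCs, and Zfp36 is higher with RBCs in both cell types.

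**Figure D5:**
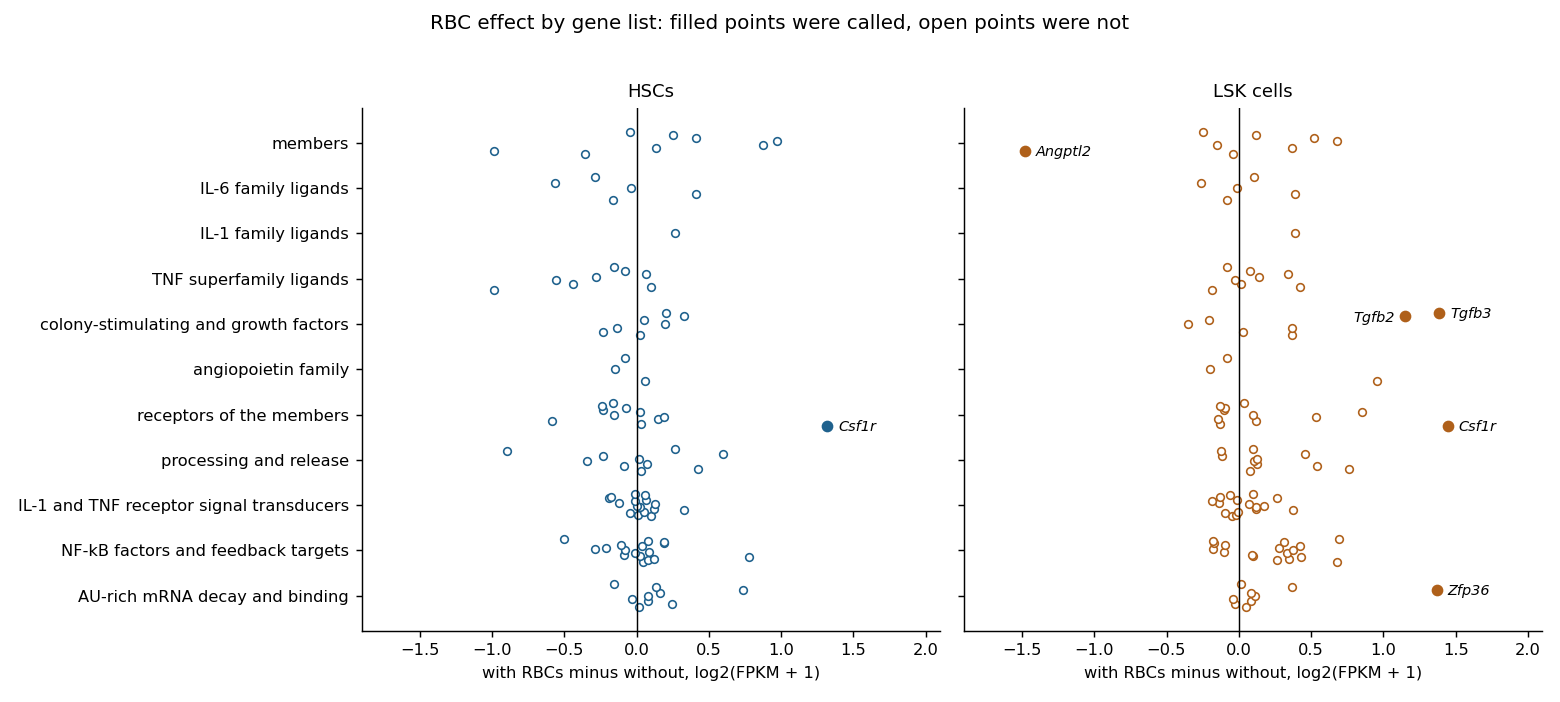
Log2 difference with RBCs of each tested gene, by list, in HSCs (left) and LSK cells (right); filled points were called and carry the gene's symbol, and open points were not called. Among the lists, Csf1r was called in both cell types, and Angptl2, Tgfb2, Tgfb3 and Zfp36 in LSK cells.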

How the data were processed

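RNA from about equal numbers of sorted CD45-positive cells was made into full-length cDNA libraries. Per the submitters' processing notes, TopHat2 2.1.1, Bowtie2 2.2.8, SAMtools 0.1.18 and Cuffdiff 2.2.1 were used with mm10; the annotation and any strand setting are not given in the sources used here. The authors deposited 1 table per library, with replicates kept apart, that gives each gene symbol an FPKM. Depth is known only in relative terms, and ranged from 0.886 to 1.13 times that of the first LSK library.

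The deposited FPKM were taken as log2(FPKM + 1) and fitted with limma 3.58.1 in R 4.3.3 (4 group means, mean-variance trend, 4 residual and 5.18 prior degrees of freedom). No replicate block was used. Alternatives covered pseudocount, filter, scaling, samples, block, trend, fold threshold and each library left out.

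The 10 genes and all lists were chosen with earlier results of these data known. Beyond the 10, the genes named are members of the pathway lists called in a comparison, at most 4 for each list and comparison, and the 3 most alike to each called gene; Ltb and Ebi3 were added after their values were seen, and cell type markers are named with their lists. Promoters came from RefSeq (GRCm38.p6), which held 8 of the 10 genes (not Osm or Angpt1), and gene positions and 3′ UTRs from GENCODE M21 (GRCm38).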

Additional observations from a re-analysis of the deposited data

How the results depend on the processing

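Most values kept their direction and their side of the threshold: 685 of the recomputed values did, 12 passed the threshold under an alternative only, and 15 changed sign. The number of the 10 genes called with RBCs in LSK cells was 1 under all 18 alternatives, and for the difference between the RBC effects it was 0 under all 17. With RBCs in HSCs it moved from 0 to 3 with a pseudocount of 0.1, to 1 with a pseudocount of 0.5 and to 2 with no fold threshold, and ranged from 0 to 1 when single libraries were left out (Angptl2, at -1.05 without the second HSC library and -1.08 without the second HSC library with RBCs). In LSK cells against HSCs it moved from 1 to 2 without RBCs with a pseudocount of 0.1 (Il6 at 1.91), and from 0 to 1 (pseudocount of 0.1, Angptl2 at -1.03) or 2 (no fold threshold) with RBCs. A lower pseudocount enlarges the log2 differences of low genes by its construction; for the other moves the cause was not tested. All 15 sign changes were in differences that were not called. Of these, 14 came from leaving out 1 library, and their ranges over the libraries left out are given here. With RBCs, Csf1 in HSCs ranged from -0.14 to 0.42, and in LSK cells Il1b ranged from -0.52 to 0.22, Tnf from -0.51 to 0.013 and Osm from -0.30 to 0.54. The difference between the RBC effects ranged from -0.51 to 0.053 for Csf1, from -0.35 to 0.13 for Lif, from -0.057 to 0.46 for Tnf and from -0.29 to 0.55 for Osm. In LSK cells against HSCs, Lif ranged from -0.13 to 0.15 without RBCs and from -0.12 to 0.36 with RBCs, where Tnf ranged from -0.14 to 0.38 and Osm from -0.061 to 0.78. With quantile normalization, Lif without RBCs went to -0.072. Whether same-numbered libraries were paired is not known. Their deviations from the group means correlated at -0.067 to 0.095, which cannot show whether they shared mice or cultures. With the replicate block, the number of these genes called stayed at 0, 1, 0, 1 and 0 in the 5 comparisons. The adjusted p was then 0.011 for Angptl2 in LSK cells and 0.0070 for Il1b between cell types (limma). When a library is left out, its group is represented by 1 library that is assumed to vary like the others. Low read numbers limit the precision for Il6, Il1a and Il1rn.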
